A study of Homo sapiens with 54 samples.

Results

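The MHC class I antigen presentation genes HLA-B, HLA-C, HLA-E, B2M, TAP1, TAP2, TAPBP, PSMB8 and PSMB9 were followed across an RNA sequencing series of MDA-MB-231 cells, a triple-negative human breast cancer line. These 9 genes were taken by symbol from the raw count table of 27978 genes by a rule that uses no measured value, although earlier results of these data were known when the set was chosen, and all 9 passed the filter on low counts in each comparison. The series held 54 libraries in 18 groups of 3, which the submitters call biological replicates. Cells were untreated or received Compound Kushen Injection (CKI), a plant extract mixture used with chemotherapy in China, at 2 mg/ml, or one of 8 mixtures derived from CKI at the equivalent dose. N-OmtOspc lacked the compounds abbreviated Omt and Ospc, N-MacOmtOspc lacked Mac, Omt and Ospc, OmtOspc and MacOmtOspc held only the compounds in their names, and N-Mac, N-Nme, N-Omt and N-Tri each lacked the 1 compound named. Untreated cells, CKI and the first 4 mixtures were sampled at 24 h and 48 h in batch 1, whereas untreated cells, CKI and the 4 single removals were sampled at 48 h in batch 2. The labels call the control cells untreated and name no vehicle for them, while the study's bioassays used a Tween and HEPES vehicle, and all values come from this 1 cell line.

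Library totals ran from 17673537 to 26138924 counts (median 22568666.5), so the least abundant member, PSMB9, still had at least 315 counts in every library. The 6 markers of this line (VIM, CD44, CAV1, KRT18, KRT8 and AXL) summed to 4933 to 6274 CPM, counts scaled for the library total, in untreated and 2049 to 5952 CPM in treated libraries, and 5 of the 6 fell under CKI at both times, whose part in the class I results was not tested. Of the luminal breast markers, the hormone receptor genes ESR1 and PGR reached at most 8 and 2 counts and FOXA1 at most 64, whereas GATA3 had 105 to 817 counts. Of the blood cell genes, PTPRC, CD3E and MS4A1 reached at most 10, 4 and 2 counts, CD14 had 15 to 535 counts, and the summed level of 7 blood markers was 0.924 to 30.9 CPM. The 24 h libraries CKI replicate 1, OmtOspc replicate 2 and N-MacOmtOspc replicate 2 stood apart from their groups. They are also the only libraries of batch 1 whose sample descriptions carry no replicate number, and the bearing of this was not tested. Their deviation from the group followed the treated against untreated difference with slopes of 0.587 to 0.628, against -0.392 to 0.122 in the other 33 libraries of batch 1. The lowest of these, -0.392 to -0.195, belong to their own group mates, whose deviations offset theirs. Without them, 82 of 90 member values in the comparisons that use them kept their call, 8 gained one and none lost one.

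Class I molecules display peptides from inside the cell to CD8 T cells. Proteasomes cut the peptides, the TAP1/TAP2 transporter moves them into the endoplasmic reticulum, tapasin (TAPBP) holds the empty class I molecule at the transporter, and a loaded heavy chain (HLA-B, HLA-C or the nonclassical HLA-E) paired with β2-microglobulin (B2M) travels to the surface. PSMB8 and PSMB9 encode catalytic subunits of the immunoproteasome that replace constitutive subunits, and HLA-E is the ligand of the NK cell receptor CD94/NKG2A. Most of these genes are induced by interferon γ through IRF1 and the coactivator NLRC5, and low class I expression is a known route by which tumours escape T cells.

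The upstream sequences of 6 members are shown, chosen to cover the heavy chains, the light chain, the transporter, tapasin and the immunoproteasome. Each run is the 250 bases before the start site on the gene's own strand, from RefSeq on GRCh38.p14. Capitals mark matches to 4 motifs, searched on both strands: an interferon-type repeat (GAAA, any 2 bases, GAAA), the κB palindrome of enhancer A (GGGGATT followed at once by CCCC), a κB motif (GGGA, any base, TTTCC) and a CRE-type motif (TGACG).
HLA-B, chr6:31357180-31357429, minus strand: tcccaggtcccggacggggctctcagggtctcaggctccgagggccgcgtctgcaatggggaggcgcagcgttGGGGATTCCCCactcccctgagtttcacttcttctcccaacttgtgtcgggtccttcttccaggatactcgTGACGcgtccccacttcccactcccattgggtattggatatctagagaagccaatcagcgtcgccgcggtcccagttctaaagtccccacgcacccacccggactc
HLA-C, chr6:31272093-31272342, minus strand: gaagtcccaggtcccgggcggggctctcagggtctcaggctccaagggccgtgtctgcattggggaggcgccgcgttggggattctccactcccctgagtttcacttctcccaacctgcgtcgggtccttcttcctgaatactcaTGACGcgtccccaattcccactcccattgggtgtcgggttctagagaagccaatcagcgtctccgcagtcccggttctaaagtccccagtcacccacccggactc
B2M, chr15:44711267-44711516, plus strand: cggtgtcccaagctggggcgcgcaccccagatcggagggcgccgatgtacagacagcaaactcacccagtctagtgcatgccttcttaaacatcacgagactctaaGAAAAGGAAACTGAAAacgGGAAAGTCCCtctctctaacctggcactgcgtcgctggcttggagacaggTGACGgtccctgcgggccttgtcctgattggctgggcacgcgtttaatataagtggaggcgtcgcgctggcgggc
TAP1, chr6:32853705-32853954, minus strand: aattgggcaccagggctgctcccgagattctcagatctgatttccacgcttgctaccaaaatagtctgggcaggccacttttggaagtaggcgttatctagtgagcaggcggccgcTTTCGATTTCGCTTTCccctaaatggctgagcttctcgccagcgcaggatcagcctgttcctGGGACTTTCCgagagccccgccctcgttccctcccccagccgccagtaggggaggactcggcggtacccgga
PSMB9, chr6:32853942-32854191, plus strand: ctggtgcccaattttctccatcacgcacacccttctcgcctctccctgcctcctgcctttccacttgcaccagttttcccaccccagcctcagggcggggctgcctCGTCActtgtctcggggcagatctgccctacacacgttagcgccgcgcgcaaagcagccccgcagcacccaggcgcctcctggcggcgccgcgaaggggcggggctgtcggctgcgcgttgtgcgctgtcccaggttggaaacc
TAPBP, chr6:33314079-33314328, minus strand: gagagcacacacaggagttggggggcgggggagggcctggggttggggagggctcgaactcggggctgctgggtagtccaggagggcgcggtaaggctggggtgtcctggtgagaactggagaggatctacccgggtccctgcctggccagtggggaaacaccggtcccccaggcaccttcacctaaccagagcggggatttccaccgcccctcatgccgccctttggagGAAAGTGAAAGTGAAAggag

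The HLA-B and HLA-C windows were 89.0% identical in a global alignment (226 identical bases, 20 mismatched and 8 opposite a gap). TAP1 and PSMB9 are divergent neighbours, and their windows share 13 bases. The interferon-type repeat had 2 matches each in the B2M, TAP1 and TAPBP windows, overlapping each other in every case, and 1 in TAP2, and 3.02% of 35116 promoters held it. The palindrome was found in HLA-B (0.0313% of promoters), the κB motif in B2M and TAP1 (0.527%), and TGACG in HLA-B, HLA-C, B2M, TAP2, PSMB8 and PSMB9 (21.2%). TAP1 and PSMB8 each had a second promoter entry as well, and neither of those second windows held a match to any of the motifs. A match is a run of letters and not a measured binding site. An upstream sequence was found for 8 of the 9 members and none was printed for HLA-E.

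In untreated cells the classical heavy chains had the highest levels of the members per kilobase. Per kilobase of union exon length (GENCODE v29, used for comparison between genes only), the mean untreated level was 817 CPM per kb for HLA-B, 473 for HLA-C, 185 for HLA-E, 168 for B2M, 77.2 for TAPBP, 32.3 for PSMB8, 29.8 for TAP2, 27.0 for TAP1 and 18.4 for PSMB9. The order of HLA-E and B2M and the order of PSMB8, TAP2 and TAP1 changed between the 3 untreated groups, so these neighbours are not separated. The long union model of B2M (6079 bases, against 3051 for HLA-B and 2507 for HLA-C) lowers its value. Its place relative to the heavy chains is therefore not settled. HLA-B and HLA-C reads could be split between near-identical class I genes by the counting, which makes their levels uncertain. In these bulk libraries, fewer cells of a type and less RNA per cell cannot be told apart.

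Untreated cells differed between sets as well. A gene was called differentially expressed (DE) where its p from edgeR's quasi-likelihood test, adjusted by Benjamini-Hochberg across every gene in the fit, was under 0.05, and differences are log2 fold changes ± SE. Between batch 2 and batch 1 at 48 h, 4 of the 9 members (1 higher and 3 lower), against 58.8% of all genes tested (29% higher and 29.8% lower) were DE. B2M was higher in batch 2, at 0.33 ± 0.058, whereas TAPBP (-0.24 ± 0.067), PSMB8 (-0.28 ± 0.059) and PSMB9 (-0.32 ± 0.11) were lower. Between 48 h and 24 h in batch 1, 3 of the 9 members (1 higher and 2 lower), against 25.2% of all genes tested (12.5% higher and 12.6% lower) were DE, with TAP2 at -0.29 ± 0.055, PSMB9 at -0.42 ± 0.083 and TAP1 at 0.18 ± 0.059. When 1 library was left out between times, TAP1 was no longer DE without untreated 24 h batch 1 replicate 1 or 2 or untreated 48 h batch 1 replicate 2 or 3 (0.15 to 0.19) and PSMB8 was DE without untreated 24 h batch 1 replicate 3 (-0.28). Between batches, PSMB9 was no longer DE without untreated 48 h batch 1 replicate 2 or untreated 48 h batch 2 replicate 3 (-0.25 to -0.18). Treated groups were therefore compared only with untreated cells of the same time and batch.

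**Figure D1:**
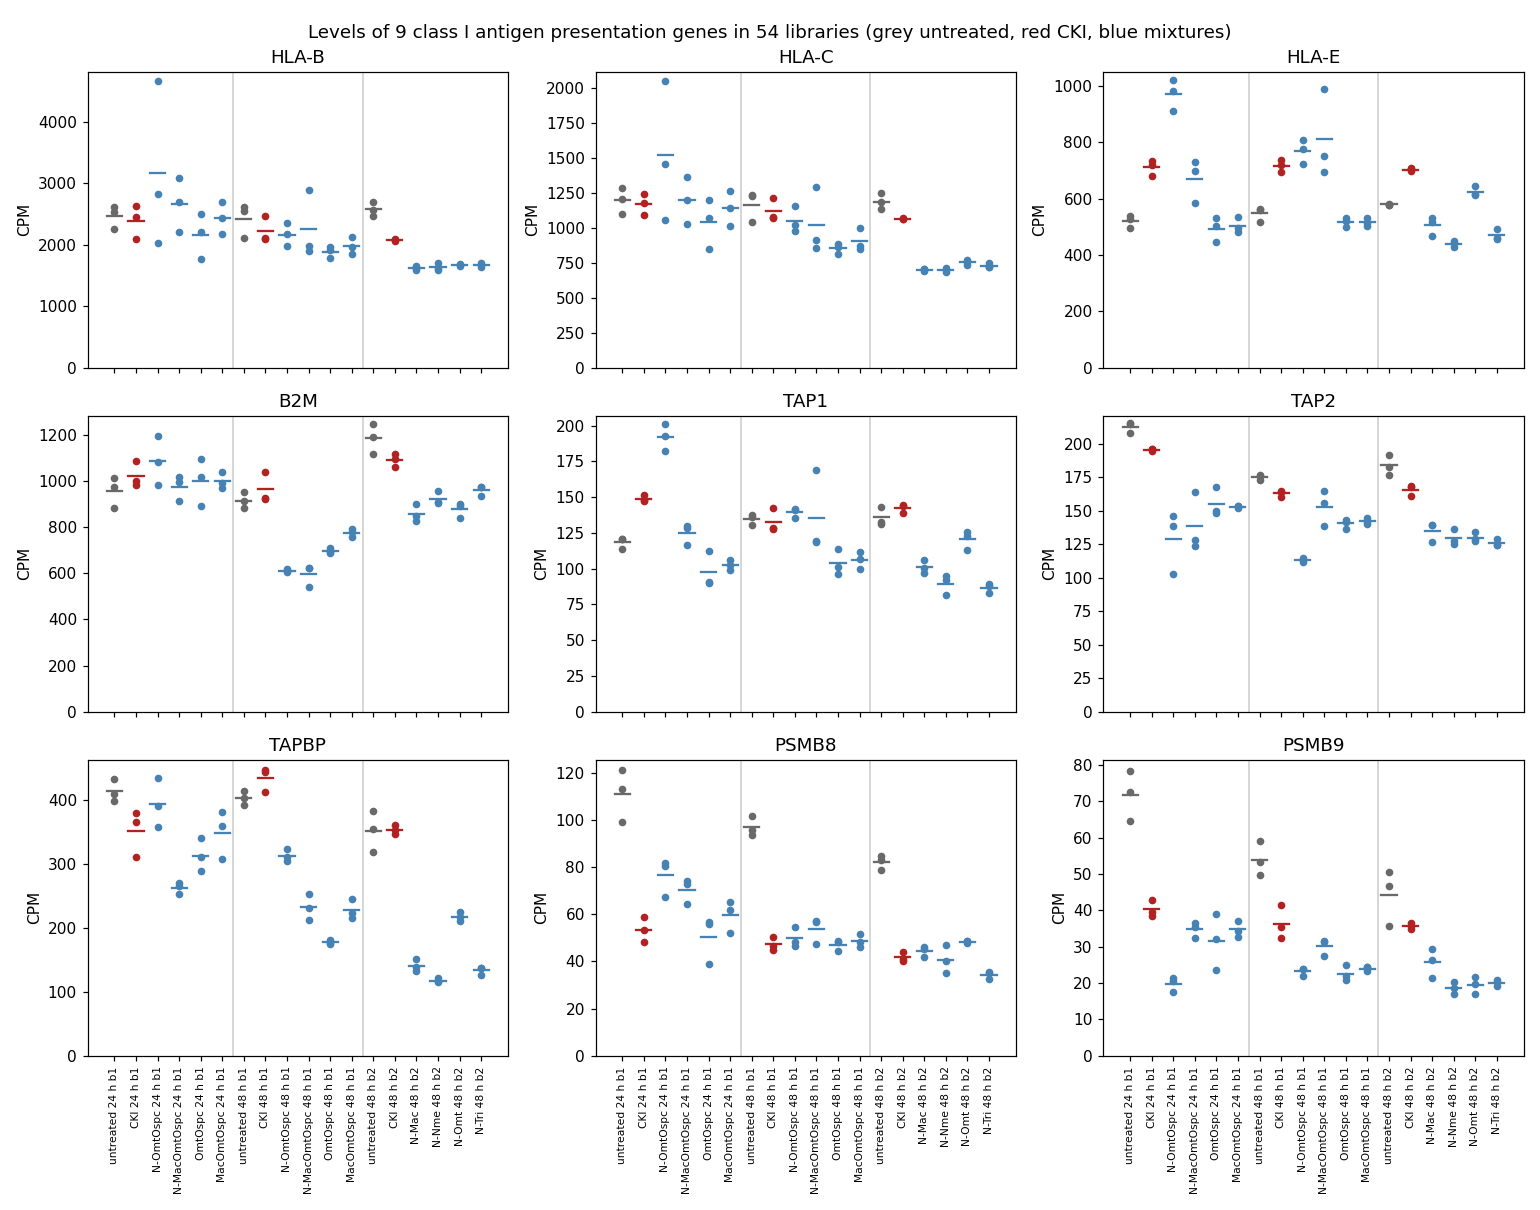
Level of each of the 9 members in CPM (vertical axis from 0, a panel per gene) in all 54 libraries, with points for libraries, short lines for group means, and vertical lines between the 3 sets of time and batch (b1 and b2 are batches 1 and 2). PSMB8 libraries lie below those of the matched untreated cells in each of the 15 treated groups, while HLA-E lies above in 8 of them and below in 3.

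The first comparison asked how whole CKI changed the class I genes. The immunoproteasome subunits PSMB8 and PSMB9 fell at both times and HLA-E rose at both times. HLA-C, B2M and TAPBP were DE at neither, with both batches in 1 fit at 48 h. CKI changed 4 of the 9 members (2 higher and 2 lower), against 38.7% of all genes tested (19.3% higher and 19.3% lower), at 24 h. At 48 h, with both batches in 1 fit (6 libraries against 6), it changed 5 of the 9 members (1 higher and 4 lower), against 71.5% of all genes tested (35.7% higher and 35.8% lower). In batch 1 alone it changed 3 (1 higher and 2 lower), against 62.5% of all genes (31.6% higher and 31% lower). In batch 2 alone it changed 6 (1 higher and 5 lower), against 68.4% of all genes (34.1% higher and 34.4% lower). The shares were close to or below that of all genes, so the count of called members is not a result about the group.

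PSMB8, the β5i subunit, was at 121, 113 and 99.3 CPM in untreated cells and 48.2, 53.4 and 59.0 CPM under CKI at 24 h. All CKI libraries were below all untreated ones, a difference of -1.05 ± 0.11 (edgeR adjusted p = 0.000414), or 2.08-fold lower. At 48 h it was at 93.6, 102 and 95.8 CPM untreated and 50.5, 46.4 and 44.9 CPM under CKI in batch 1. In batch 2 it was at 82.9, 84.6 and 78.7 CPM and 41.0, 44.2 and 40.3 CPM. The groups did not overlap in either batch and the difference was -0.99 ± 0.044 (edgeR adjusted p = 2.32e-12).

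PSMB9, the β1i subunit, was at 78.3, 72.5 and 64.5 CPM untreated and 38.5, 39.5 and 42.7 CPM under CKI at 24 h, without overlap, and fell by 0.83 ± 0.10. At 48 h it was at 49.6, 59.0 and 53.3 CPM against 41.4, 35.3 and 32.3 CPM in batch 1 and 46.7, 50.6 and 35.6 CPM against 35.5, 36.6 and 34.9 CPM in batch 2. The batch 2 groups overlapped, through the low untreated replicate 3, and the difference over both batches was -0.43 ± 0.084 (edgeR adjusted p = 0.00019).

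HLA-E moved the other way. It was at 537, 529.6 and 496 CPM untreated and 682, 720.0 and 735 CPM under CKI at 24 h, every CKI library being higher, and rose by 0.45 ± 0.077 (edgeR adjusted p = 0.00321). At 48 h the levels were 519, 559.6 and 565 CPM against 738, 719 and 693 CPM in batch 1, and 579, 582 and 578 CPM against 707, 698 and 704 CPM in batch 2. Again no libraries overlapped, and the difference was 0.35 ± 0.035 (edgeR adjusted p = 9.92e-08), a 1.27-fold rise.

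With both batches in 1 fit at 48 h, differences of HLA-B, HLA-C and B2M under CKI lay between -0.20 and 0.10 at both times. HLA-B was at 2624, 2540.4 and 2266 CPM untreated and 2096, 2460.1 and 2631 CPM under CKI at 24 h, a difference of -0.047 ± 0.11 (95% interval -0.30 to 0.20). At 48 h it was lower (-0.20 ± 0.056). In batch 2, 2574, 2699 and 2468 CPM stood against 2066, 2093 and 2085 CPM, and HLA-B was not DE in batch 1 alone (-0.11). The difference between batches was itself not DE for HLA-B. HLA-C differed by -0.031 ± 0.092 at 24 h and -0.093 ± 0.048 at 48 h. In batch 2 its CKI libraries (1064 to 1074 CPM) all lay below the untreated ones (1133 to 1248 CPM), where 34.5% of all genes did so. B2M differed by 0.10 ± 0.088 and -0.0085 ± 0.045, with 95% intervals of -0.11 to 0.30 and -0.10 to 0.086.

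Of the peptide loading genes, TAP1 was at 114, 121 and 121 CPM untreated and 147, 151 and 148 CPM under CKI at 24 h and rose by 0.33 ± 0.074, whereas at 48 h it differed by 0.037 ± 0.041 and was not DE. TAP2 was at 208, 215 and 214 CPM and 196, 196 and 194 CPM at 24 h, lower in each CKI library but not DE (-0.12 ± 0.070), and was DE at 48 h (-0.11 ± 0.034) though not in batch 1 alone (-0.093). TAPBP differed by -0.23 ± 0.094 at 24 h and 0.071 ± 0.045 at 48 h. When 1 library was left out at 24 h, TAP1 was no longer DE without untreated replicate 1 (0.29), and at 48 h HLA-C was DE without untreated 48 h batch 1 replicate 1 or CKI 48 h batch 1 replicate 1 (-0.12) and TAPBP was DE without untreated 48 h batch 2 replicate 2 (0.10).

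Whether the CKI difference itself changed between batches or times was tested as an interaction. Between batches at 48 h, 0 of the 9 members were DE in edgeR (1 at unadjusted p under 0.05, and 0 in DESeq2), against 13.8% of all genes. Between 24 h and 48 h in batch 1, 0 were DE (2 at unadjusted p under 0.05, and 2 in DESeq2), against 1.56% of all genes. With library sizes alone 67.3% of these calls over all genes were higher, against 53.4% with TMM. The values furthest from 0 were TAP1 at -0.33 ± 0.089 and TAPBP at 0.36 ± 0.11 between times, and in this fit TAP1 was DE without CKI 24 h batch 1 replicate 1 (-0.35) and TAPBP was DE without CKI 24 h batch 1 replicate 1 (0.27). Between batches, B2M was DE without untreated 48 h batch 2 replicate 3 (-0.22).

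The 4 mixtures given at 24 h asked which components were enough for, or needed for, these differences. PSMB8, PSMB9 and TAP2 fell under all 4, HLA-E rose under the 2 mixtures that held the remaining compounds of CKI, and HLA-B, HLA-C and B2M were DE under none. N-OmtOspc changed 5 of the 9 members (2 higher and 3 lower), against 66.8% of all genes tested (33% higher and 33.8% lower), and N-MacOmtOspc changed 5 of the 9 members (1 higher and 4 lower), against 45.9% of all genes tested (23.8% higher and 22.1% lower). OmtOspc changed 4 of the 9 members (0 higher and 4 lower), against 16.5% of all genes tested (8.54% higher and 7.92% lower), and MacOmtOspc changed 5 of the 9 members (0 higher and 5 lower), against 35.8% of all genes tested (18.1% higher and 17.7% lower). The 5 comparisons of 24 h treatments with untreated cells share the same 3 untreated libraries.

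PSMB9 fell furthest under N-OmtOspc, to 20.5, 21.2 and 17.4 CPM, all below the other 24 h libraries. The difference was -1.85 ± 0.12 (edgeR adjusted p = 5.12e-06), against -1.03 ± 0.11 under N-MacOmtOspc, -1.19 ± 0.18 under OmtOspc and -1.05 ± 0.088 under MacOmtOspc. For PSMB8 the order was different, with -0.52 ± 0.12 under N-OmtOspc, -0.64 ± 0.11 under N-MacOmtOspc, -1.14 ± 0.16 under OmtOspc and -0.90 ± 0.10 under MacOmtOspc. TAP2, the transporter's other chain, was at 138, 146 and 103 CPM under N-OmtOspc, a difference of -0.70 ± 0.13.

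HLA-E and TAP1 were highest of all 18 groups under N-OmtOspc at 24 h. HLA-E was at 981, 912 and 1021 CPM, each above every other 24 h library, and rose by 0.92 ± 0.10. TAP1 was at 201, 193 and 182 CPM and rose by 0.71 ± 0.091. The 2 chains of the peptide transporter thus moved in opposite directions in this group. HLA-B was at 2835, 2034 and 4663 CPM and HLA-C at 1460.1, 1056 and 2050.4 CPM, replicate 3 being high for both, and neither was DE (0.38 ± 0.27 and 0.36 ± 0.22). Scaling matters here, since with library sizes alone the median of all genes in this comparison moved by -0.30 and the share of calls that were higher was 34.4% (49.4% with TMM scaling), while TAPBP became DE and lower (-0.35) and HLA-E and TAP1 were still DE and higher (0.62 and 0.41).

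Under N-MacOmtOspc at 24 h, TAPBP was at 265, 271 and 253 CPM against 434, 409.8 and 399 CPM untreated, without overlap, and fell by 0.64 ± 0.083. HLA-E was at 730.4, 584 and 699 CPM and rose by 0.38 ± 0.11. Under OmtOspc and MacOmtOspc, HLA-E was not DE (-0.077 ± 0.11 and -0.049 ± 0.066). TAPBP fell under OmtOspc by 0.40 ± 0.11 and under MacOmtOspc by 0.25 ± 0.081, and TAP1 fell under MacOmtOspc by 0.21 ± 0.062. Several of these calls changed when 1 library was left out. Under N-OmtOspc, HLA-B was DE without N-OmtOspc replicate 2 (0.63) and HLA-C was DE without N-OmtOspc replicate 2 (0.59), and under N-MacOmtOspc, HLA-B was DE without N-MacOmtOspc replicate 2 (0.24) and HLA-E was no longer DE without untreated replicate 1 or 2 or 3 or N-MacOmtOspc replicate 1 or 3 (0.31 to 0.39). Under OmtOspc, TAP1 was DE without OmtOspc replicate 2 (-0.39), TAP2 was no longer DE without untreated replicate 1 or 2 or 3 or OmtOspc replicate 3 (-0.47 to -0.43) and TAPBP was no longer DE without untreated replicate 1 or 2 or 3 or OmtOspc replicate 3 (-0.44 to -0.35). Under MacOmtOspc, TAP1 was no longer DE without untreated replicate 2 or 3 or MacOmtOspc replicate 2 (-0.20 to -0.18) and TAPBP was no longer DE without untreated replicate 1 or 2 or MacOmtOspc replicate 3 (-0.25 to -0.16).

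At 48 h in batch 1, B2M, PSMB8, PSMB9 and TAPBP fell under all 4 mixtures, TAP2 under 3, HLA-B, HLA-C and TAP1 under OmtOspc and MacOmtOspc, and HLA-E rose under N-OmtOspc and N-MacOmtOspc. N-OmtOspc changed 6 of the 9 members (1 higher and 5 lower), against 80.4% of all genes tested (40.1% higher and 40.4% lower), and N-MacOmtOspc changed 5 of the 9 members (1 higher and 4 lower), against 64.7% of all genes tested (32.4% higher and 32.3% lower). OmtOspc changed 8 of the 9 members (0 higher and 8 lower), against 67.8% of all genes tested (34.1% higher and 33.7% lower), and MacOmtOspc changed 8 of the 9 members (0 higher and 8 lower), against 60.5% of all genes tested (30.5% higher and 30.1% lower). The OmtOspc and MacOmtOspc counts of lower members stood above the share of all genes.

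B2M was at 882, 951 and 915 CPM untreated, 609, 618 and 606 CPM under N-OmtOspc and 622, 539 and 625 CPM under N-MacOmtOspc. Neither group overlapped with untreated cells, and the differences were -0.58 ± 0.057 and -0.61 ± 0.11 (edgeR adjusted p = 3.49e-09 and 0.000461). It fell also under OmtOspc (-0.39 ± 0.046) and MacOmtOspc (-0.24 ± 0.051). At 24 h the same 4 mixtures had B2M at 0.20, 0.048, 0.066 and 0.063 from untreated cells, none DE, and the difference between times was not tested.

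TAPBP was at 392, 404 and 415 CPM untreated, 176, 181 and 175 CPM under OmtOspc and 216, 246 and 223 CPM under MacOmtOspc, without overlap. It fell by 1.19 ± 0.048 under OmtOspc and by 0.83 ± 0.059 under MacOmtOspc, against -0.36 ± 0.058 under N-OmtOspc and -0.79 ± 0.10 under N-MacOmtOspc. The differences of PSMB9 lay between -1.26 and -0.83 across the 4 mixtures, and those of PSMB8 between -1.05 and -0.84. HLA-E was at 778, 723 and 808 CPM under N-OmtOspc and 751, 991 and 697 CPM under N-MacOmtOspc, rising by 0.49 ± 0.061 and 0.58 ± 0.13.

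N-MacOmtOspc replicate 2 at 48 h was high for HLA-B (replicates at 1982, 2893 and 1905 CPM), HLA-C (914, 1292 and 856 CPM) and TAP1 (119, 169 and 119 CPM), and low for B2M. Under N-MacOmtOspc, HLA-B was DE without N-MacOmtOspc replicate 2 (-0.31), HLA-C was DE without N-MacOmtOspc replicate 2 (-0.39) and TAP2 was DE without N-MacOmtOspc replicate 2 (-0.24). Under N-OmtOspc, HLA-B was DE without untreated replicate 1 or N-OmtOspc replicate 3 (-0.25 to -0.22) and HLA-C was DE without untreated replicate 1 or N-OmtOspc replicate 3 (-0.23 to -0.22). Under OmtOspc, HLA-E was DE without untreated replicate 1 (-0.13), and under MacOmtOspc, HLA-E was DE without untreated replicate 1 (-0.14).

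The 4 mixtures lacking a single compound, given for 48 h in batch 2, changed every member. All 9 were DE under each of them, and 35 of the 36 differences were falls, the exception being HLA-E under N-Omt. The background was high as well, with 72.6% of all genes DE under N-Mac (36% lower), 69.5% under N-Nme (34.6% lower), 79.6% under N-Omt (40.2% lower, 39.4% higher) and 74.3% under N-Tri (37.2% lower, 37.1% higher). These 4 comparisons share 3 untreated libraries.

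TAPBP fell furthest of the members under N-Mac, N-Nme and N-Tri. It was at 355, 383 and 319 CPM untreated and 115, 116 and 121 CPM under N-Nme, a difference of -1.59 ± 0.073 (edgeR adjusted p = 2.37e-11), or 3.02-fold lower. It was at 139, 152 and 132 CPM under N-Mac (-1.31 ± 0.072) and 126, 137 and 138 CPM under N-Tri (-1.40 ± 0.063). N-Omt kept the most, at 226, 211 and 217 CPM (-0.68 ± 0.061), each library above those of the other 3 single removals.

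The classical heavy chains also fell under each single removal. HLA-B was at 1661, 1622 and 1584 CPM under N-Mac and 1687, 1656 and 1675 CPM under N-Omt, all below the untreated libraries, with differences from -0.62 (N-Omt) to -0.66 (N-Nme). HLA-C was at 1189.5, 1248 and 1133 CPM untreated and 717, 687 and 697 CPM under N-Nme, with differences from -0.65 (N-Omt) to -0.77 (N-Nme). B2M was at 850.4, 825 and 899 CPM under N-Mac and fell by 0.46 ± 0.060, and its value nearest 0 was -0.30 ± 0.046 under N-Tri.

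HLA-E separated the removals. It fell under N-Nme (450.4, 430.1 and 441 CPM, -0.40 ± 0.061), N-Tri (460.0, 457 and 493 CPM, -0.30 ± 0.040) and N-Mac (518, 532 and 467 CPM, -0.19 ± 0.058). Under N-Omt it was at 647, 618 and 612 CPM, above all untreated libraries, with a difference of 0.12 ± 0.042. TAP1 had the same order, at -0.65 ± 0.049 under N-Tri, -0.61 ± 0.070 under N-Nme, -0.41 ± 0.057 under N-Mac and -0.16 ± 0.054 under N-Omt, apart from N-Tri and N-Nme changing places. Under N-Omt, HLA-E was no longer DE without untreated replicate 1 or 3 or N-Omt replicate 1 (0.093 to 0.11) and TAP1 was no longer DE without N-Omt replicate 2 (-0.12), and no other call of a member under the 4 removals changed when 1 library was left out. The differences of TAP2 ran from -0.44 (N-Mac) to -0.55 (N-Tri), of PSMB8 from -0.75 (N-Omt) to -1.26 (N-Tri) and of PSMB9 from -0.78 (N-Mac) to -1.26 (N-Nme).

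**Figure D2:**
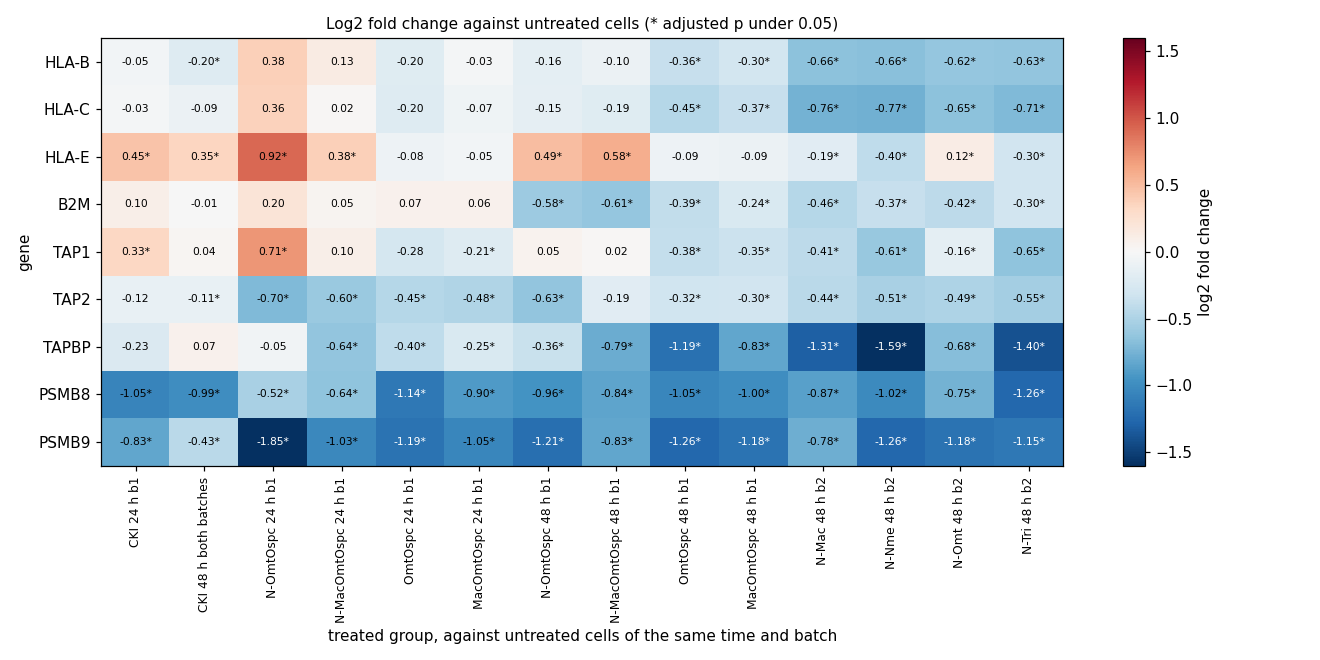
Log2 fold change against untreated cells of the same time and batch (printed values and colour scale, red higher and blue lower) for the 9 members (rows) in 14 comparisons (columns), with a star where the gene was DE. PSMB8 and PSMB9 lie below 0 and are DE in all 14, and HLA-E is DE on both sides of 0.

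Counted over the 14 comparisons with untreated cells, PSMB8 and PSMB9 were lower in 14 each, TAP2 in 12, TAPBP in 11, B2M in 8, HLA-B in 7 and HLA-C in 6, and none of these 7 genes was called higher in any. HLA-E was higher in 7 and lower in 3, and TAP1 higher in 2 and lower in 7. In a single comparison, 7.92 to 40.4% of all genes tested were lower and 8.54 to 40.1% higher. The 14 comparisons reuse the untreated libraries of 3 sets, so they are not independent. How many of all genes were lower in all 14 was not counted. The same limits hold for the related genes counted over these comparisons below. By library, PSMB8 and TAP2 lay below all matched untreated libraries in 15 of the 15 treated groups, PSMB9 in 14, TAPBP in 12, B2M and TAP1 in 8, HLA-C in 7, HLA-B in 6 and HLA-E in 3, where 17.7 to 39.1% of all genes did so in a single group. HLA-E lay above in 8 groups and TAP1 in 2, against 17.9 to 39.6% of all genes.

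Direct comparison with CKI at the same time and batch asked what removal of components did to the response. B2M and TAPBP were lower than under CKI with all 8 mixtures at 48 h, and PSMB8 was DE against CKI with 2 of the 8. Against CKI in batch 2, N-Mac changed 8 of the 9 members (0 higher and 8 lower), against 72.8% of all genes tested (36.6% higher and 36.2% lower), and N-Nme changed 8 of the 9 members (0 higher and 8 lower), against 72.7% of all genes tested (37.3% higher and 35.5% lower). N-Omt changed 9 of the 9 members (1 higher and 8 lower), against 80.5% of all genes tested (40.1% higher and 40.4% lower), and N-Tri changed 9 of the 9 members (0 higher and 9 lower), against 77.1% of all genes tested (38.4% higher and 38.6% lower).

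TAPBP was at 361, 347 and 354 CPM under CKI in batch 2, so that the single removals lay below CKI at -1.60 ± 0.051 (N-Nme), -1.41 ± 0.034 (N-Tri), -1.32 ± 0.048 (N-Mac) and -0.69 ± 0.036 (N-Omt). HLA-E was at 707, 698 and 704 CPM under CKI and was lower than this, at -0.68 ± 0.052 under N-Nme and -0.16 ± 0.033 under N-Omt. HLA-C was lower than under CKI, from -0.49 (N-Omt) to -0.62 (N-Nme). PSMB8 was higher than under CKI with N-Omt (0.22 ± 0.051), lower with N-Tri (-0.30 ± 0.053), and not DE with N-Mac (95% interval -0.021 to 0.21) or N-Nme (-0.22 to 0.14). With 1 library left out, PSMB8 was DE without N-Mac replicate 3 (0.14) and PSMB8 was DE without N-Nme replicate 1 (-0.17).

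In batch 1 at 48 h, N-OmtOspc differed from CKI in 4 of the 9 members (0 higher and 4 lower), against 77.8% of all genes tested (38.3% higher and 39.5% lower), and N-MacOmtOspc in 2 of the 9 members (0 higher and 2 lower), against 60.5% of all genes tested (29.9% higher and 30.5% lower). OmtOspc differed in 8 of the 9 members (0 higher and 8 lower), against 64.6% of all genes tested (33.2% higher and 31.4% lower), and MacOmtOspc in 8 of the 9 members (0 higher and 8 lower), against 57.9% of all genes tested (29.3% higher and 28.5% lower). B2M and TAPBP were lower than under CKI with all 4. B2M was at 1041, 928 and 923 CPM under CKI and lower with the mixtures, at -0.68 ± 0.11 under N-MacOmtOspc and -0.66 ± 0.053 under N-OmtOspc. TAPBP was at 414, 445 and 447 CPM under CKI, its highest group, and lower at -1.30 ± 0.043 under OmtOspc. HLA-E was lower than under CKI with OmtOspc (-0.47 ± 0.039) and MacOmtOspc (-0.49 ± 0.050), and was not DE with N-OmtOspc (0.10 ± 0.053) or N-MacOmtOspc (0.19 ± 0.13). PSMB8 was DE against CKI under none of the 4, with intervals of -0.065 to 0.22, -0.023 to 0.42, -0.13 to 0.11 and -0.10 to 0.17. In the N-MacOmtOspc comparison with library sizes alone, the median of all genes moved by -0.15 and 37.8% of calls were higher (49.5% with TMM), and TAP2 (-0.23) and PSMB9 (-0.40) became DE. With 1 library left out, HLA-C was DE without N-OmtOspc replicate 3 (-0.17), HLA-E was DE without CKI replicate 1 or N-OmtOspc replicate 2 (0.12 to 0.15) and TAP1 was DE without CKI replicate 1 (0.12) for N-OmtOspc, and HLA-C was DE without N-MacOmtOspc replicate 2 (-0.34), PSMB8 was DE without N-MacOmtOspc replicate 1 (0.27) and PSMB9 was DE without CKI replicate 3 or N-MacOmtOspc replicate 2 (-0.34 to -0.30) for N-MacOmtOspc. For MacOmtOspc, HLA-B was no longer DE without CKI replicate 1 or MacOmtOspc replicate 1 or 3 (-0.17 to -0.10).

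At 24 h, N-OmtOspc differed from CKI in 5 of the 9 members (3 higher and 2 lower), against 54% of all genes tested (26.5% higher and 27.5% lower), N-MacOmtOspc in 2 of the 9 members (0 higher and 2 lower), against 23.1% of all genes tested (12.3% higher and 10.8% lower), and MacOmtOspc in 3 of the 9 members (0 higher and 3 lower), against 16% of all genes tested (8.57% higher and 7.43% lower). OmtOspc differed in 0 of the 9 members in edgeR, against 2.32% of all genes (1.24% higher and 1.08% lower), with 3 at unadjusted p under 0.05 and HLA-E and TAP1 called by DESeq2. PSMB9 was lower under N-OmtOspc than under CKI, at -1.03 ± 0.14 (edgeR adjusted p = 0.00044), while PSMB8 was higher by 0.52 ± 0.14. HLA-E and TAP1 were higher under N-OmtOspc (0.45 ± 0.13 and 0.37 ± 0.11) and lower under MacOmtOspc (-0.51 ± 0.084 and -0.54 ± 0.075). In the N-OmtOspc comparison with library sizes alone, the median of all genes moved by -0.34, 28.4% of calls were higher (49.1% with TMM), and HLA-E (0.11), TAP1 (0.025) and PSMB8 (0.18) were no longer DE. Most of these calls changed when 1 library was left out, and the 10 over all 4 mixtures were 4 without CKI replicate 2 and 6 without CKI replicate 3. For N-OmtOspc, HLA-C was DE without N-OmtOspc replicate 2 (0.60), HLA-E was no longer DE without CKI replicate 2 or 3 or N-OmtOspc replicate 1 (0.45 to 0.46), TAP1 was no longer DE without CKI replicate 2 or 3 or N-OmtOspc replicate 1 or 2 (0.35 to 0.38) and PSMB8 was no longer DE without CKI replicate 2 or N-OmtOspc replicate 1 (0.48 to 0.51). For N-MacOmtOspc, TAP2 was no longer DE without CKI replicate 1 or 2 or 3 or N-MacOmtOspc replicate 1 or 3 (-0.50 to -0.40), TAPBP was no longer DE without CKI replicate 2 or 3 or N-MacOmtOspc replicate 1 or 3 (-0.40 to -0.36) and PSMB8 was DE without N-MacOmtOspc replicate 2 (0.49). For MacOmtOspc, HLA-E was no longer DE without MacOmtOspc replicate 2 (-0.49), TAP1 was no longer DE without MacOmtOspc replicate 2 (-0.52) and TAP2 was no longer DE without CKI replicate 2 or MacOmtOspc replicate 1 or 2 or 3 (-0.36 to -0.35).

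**Figure D3:**
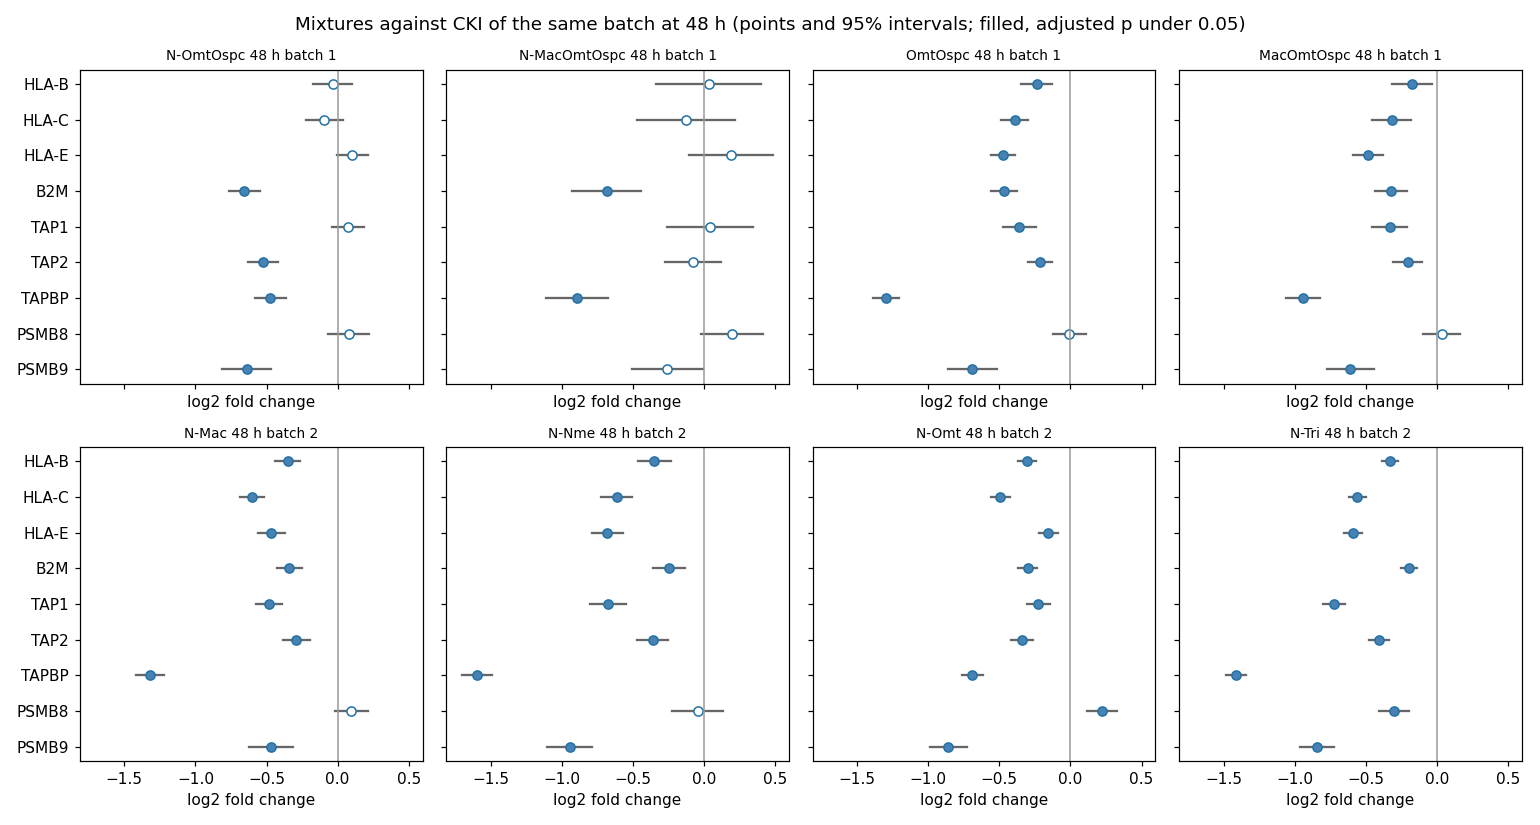
Log2 fold change (horizontal axis) of the 9 members in each of 8 mixtures (panels) against CKI of the same batch at 48 h, with bars for the 95% interval and filled points where the gene was DE. TAPBP lies below CKI in all 8 mixtures, and PSMB8 is DE in 2 of them.

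The effect of Mac was read from 2 pairs of mixtures that differ in that compound alone, each at 2 times. CKI and N-Mac, which also differ in Mac alone, were compared above at 48 h in batch 2. Adding Mac to OmtOspc changed 0 of the 9 members at 24 h in edgeR, where 0% of all genes were DE (0 members at unadjusted p under 0.05), and 2 of the 9 members (2 higher and 0 lower), against 9.72% of all genes tested (5.9% higher and 3.82% lower) at 48 h. TAPBP was at 176, 181 and 175 CPM without Mac and 216, 246 and 223 CPM with it, without overlap (0.36 ± 0.049), and B2M was higher by 0.15 ± 0.039. When 1 library was left out, B2M was no longer DE without OmtOspc replicate 2 or 3 or MacOmtOspc replicate 1 or 3 (0.13 to 0.14).

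The other pair, N-OmtOspc against N-MacOmtOspc, held the compounds of CKI other than Omt and Ospc, with or without Mac. It changed 4 of the 9 members (3 higher and 1 lower), against 36.7% of all genes tested (18.1% higher and 18.6% lower) at 24 h. At 48 h it changed 3 of the 9 members (1 higher and 2 lower), against 39.2% of all genes tested (19.5% higher and 19.6% lower). TAPBP was higher with Mac at both times, by 0.57 ± 0.13 and 0.43 ± 0.10, and PSMB9 was lower, at -0.83 ± 0.14 and -0.38 ± 0.10. TAP2 was lower with Mac at 48 h (-0.44 ± 0.093), and HLA-E and TAP1 were higher at 24 h (0.52 ± 0.14 and 0.60 ± 0.12). With library sizes alone the median of all genes moved by -0.28 at 24 h, where 24.9% of calls were higher (49.4% with TMM), and by 0.12 at 48 h, where 68.8% were (49.8% with TMM), and at 24 h TAPBP (0.29), HLA-E (0.24) and TAP1 (0.32) were no longer DE. At 24 h, HLA-E was no longer DE without N-OmtOspc replicate 1 or 2 or N-MacOmtOspc replicate 3 (0.52 to 0.57) and TAPBP was no longer DE without N-OmtOspc replicate 1 or N-MacOmtOspc replicate 3 (0.55 to 0.58). At 48 h, HLA-C was DE without N-MacOmtOspc replicate 2 (0.25), TAP1 was DE without N-MacOmtOspc replicate 2 (0.23) and PSMB9 was no longer DE without N-OmtOspc replicate 1 (-0.34). In batch 2, where Omt and Ospc were present, 8 of the 9 members were lower under N-Mac than under CKI, against 36.2% of all genes tested. PSMB9 and TAP2 were among these 8, so they were higher with Mac there, opposite to the pair in batch 1.

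The immunoproteasome subunits were next set against the constitutive subunits whose place they take, as a ratio of levels per kilobase in the same library, which does not depend on library scaling. PSMB8 was at 35.4, 33.5 and 34.1% of the level of PSMB5 in untreated cells at 24 h and at 19.1, 17.7 and 17.3% under CKI. At 48 h the ratio was 36.4 ± 1.35% (SD, n = 3) against 18.9 ± 0.0467% (SD, n = 3) in batch 1 and 33.9 ± 0.821% (SD, n = 3) against 17.1 ± 0.575% (SD, n = 3) in batch 2. No library under CKI overlapped with untreated cells. PSMB9 was at 17.2 ± 0.642% (SD, n = 3) of the level of PSMB6 untreated and 11.3 ± 1.12% (SD, n = 3) under CKI at 24 h, and at 4.24, 4.17 and 6.84% under N-OmtOspc, the lowest of the 18 groups. PSMB10, the third inducible subunit and no member of the set, was at 35.1 ± 0.654% (SD, n = 3) of PSMB7 untreated and 9.96 ± 2.83% (SD, n = 3) under CKI at 24 h, and reached 2.77 ± 0.111% (SD, n = 3) under N-Omt at 48 h, against 19.7 ± 3.43% (SD, n = 3) in untreated cells of that batch. These ratios are descriptions and show unequal change, not that a counterpart was unchanged. PSMB7 itself was higher than untreated in 9 of the 14 comparisons, PSMB6 lower in 8, and PSMB5 higher in 2 and lower in 4.

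**Figure D4:**
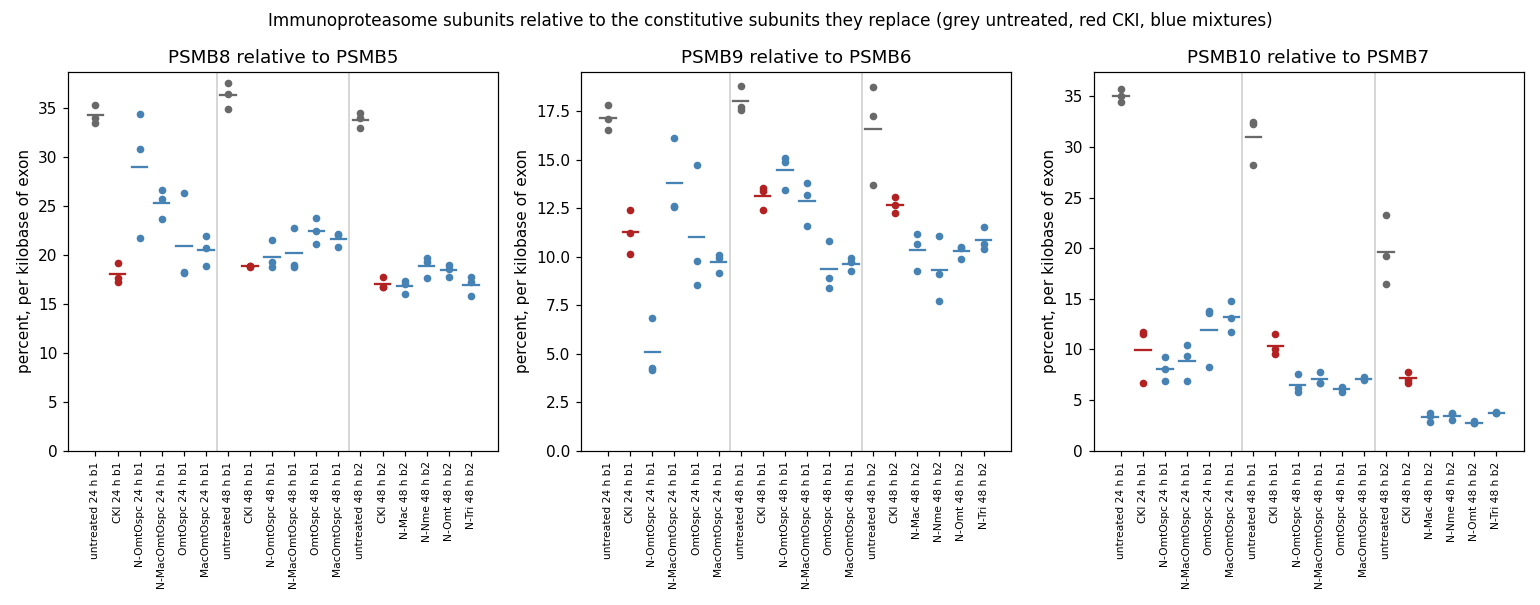
Ratio of each inducible subunit to its constitutive counterpart (percent, per kilobase) in all 54 libraries by group, for PSMB8 to PSMB5, PSMB9 to PSMB6 and PSMB10 to PSMB7, with points for libraries and short lines for group means. The untreated groups have the highest mean ratio of their time and batch in each panel.

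The other 99 genes of the pathway lists show how the rest of the machinery moved. At 24 h under CKI, 21 were higher and 30 lower of 94 tested, against 19.3% of all genes in each direction, and at 48 h 29 were higher and 47 lower of 95 tested, against 35.7% and 35.8% of all genes. The 24 h count of 51 was 30 without untreated replicate 2 and 33 without untreated replicate 1. The immunoproteasome and activator list holds the members PSMB8 and PSMB9 besides PSMB10, PSME1 and PSME2, and all 5 genes fell at both times. Its medians were -0.83 and -0.43, which are the values of the member PSMB9, against 0.014 and 0.00071 over all genes tested. PSMB10 was at -1.53 ± 0.22 and -1.44 ± 0.080, and at 48 h the PA28 activator genes PSME1 and PSME2 were at -0.22 ± 0.047 and -0.26 ± 0.044. At 24 h, PSME1 (-0.30 to -0.28) and PSME2 (-0.36 to -0.33) were no longer DE without untreated replicate 1 or 2 or CKI replicate 2.

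Of the nonclassical heavy chains, HLA-F was lower in 12 of the 14 comparisons, its lowest value being -1.70 ± 0.11 under N-Omt, and HLA-G in 2. Of the loading chaperones, TAPBPL was lower in 9 of the 14, whereas CANX was higher in 10 and lower in 1, that one being CKI at 48 h (-0.30 ± 0.066). That call was lost in batch 1 alone (-0.085) and with no batch term (-0.34). CALR was higher in 5 and lower in 6, and PDIA3 higher in 7 and lower in 3, and their falls under CKI at 48 h were also lost in batch 1 alone (-0.11 and -0.067).

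Across the 14 comparisons, 7.92 to 40.4% of all genes tested were lower in a single one. Among regulators, NLRC5 was lower in 14 of 14 comparisons, at -0.24 ± 0.073 under CKI at 48 h and at -1.71 ± 0.11 under N-OmtOspc at 24 h. The 48 h call under CKI was lost in batch 2 alone (-0.042), with library sizes alone (-0.16) and with no batch term (-0.26). Under CKI at 24 h, the calls of NLRC5 (-0.36 to -0.29) and IRF1 (-0.49 to -0.47) were lost without untreated replicate 1, 2 or 3, and that of NLRC5 also without CKI replicate 3. IRF1 was lower in 11 of 14 and RFX5 in 9. CIITA, the class II coactivator, was lower in 14 of 14, at -1.01 ± 0.12 under CKI at 48 h. Of 22 interferon-stimulated genes, 12 fell and 3 rose under CKI at 24 h, and 14 fell and 5 rose at 48 h. The shares of all genes were 19.3% in each direction at 24 h, and 35.8% lower and 35.7% higher at 48 h. IFIT2 and IFIT3 were lower in 14 of 14, with -2.34 ± 0.093 and -1.93 ± 0.10 under CKI at 48 h. They were picked as the 2 called genes of this list with the largest change there, so these values are extremes by selection. CIITA was picked from the class II list in the same way. The peptide trimming aminopeptidases ERAP1 and ERAP2 were lower in 9 and 11 comparisons and higher in none, and the ERAP1 call under CKI at 48 h was lost in batch 1 alone (-0.11).

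Of 6 genes that act in endocytosis or degradation of class I molecules, 3 rose and 0 fell under CKI at 24 h, and 3 rose and 1 fell at 48 h, when 71.5% of all genes were DE (38.7% at 24 h). MARCH9, a ubiquitin ligase that removes class I from the surface, was higher in 9 of 14 comparisons and lower in none, its 48 h call under CKI being lost in batch 2 alone (0.15), with no batch term (0.26) and with all libraries in 1 fit (0.23). IRGQ, which directs class I to autophagy, was higher in 10 and lower in none. Both genes were picked as the called genes of this list with the largest change under CKI at 48 h. Of the NKG2D ligands, 5 of 7 tested rose and 1 fell under CKI at 48 h, against 35.7% and 35.8% of all genes. Other treatments differed, since over the 14 comparisons 0 to 5 were higher and 0 to 4 lower, with list medians from -0.50 to 0.75.

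**Figure D5:**
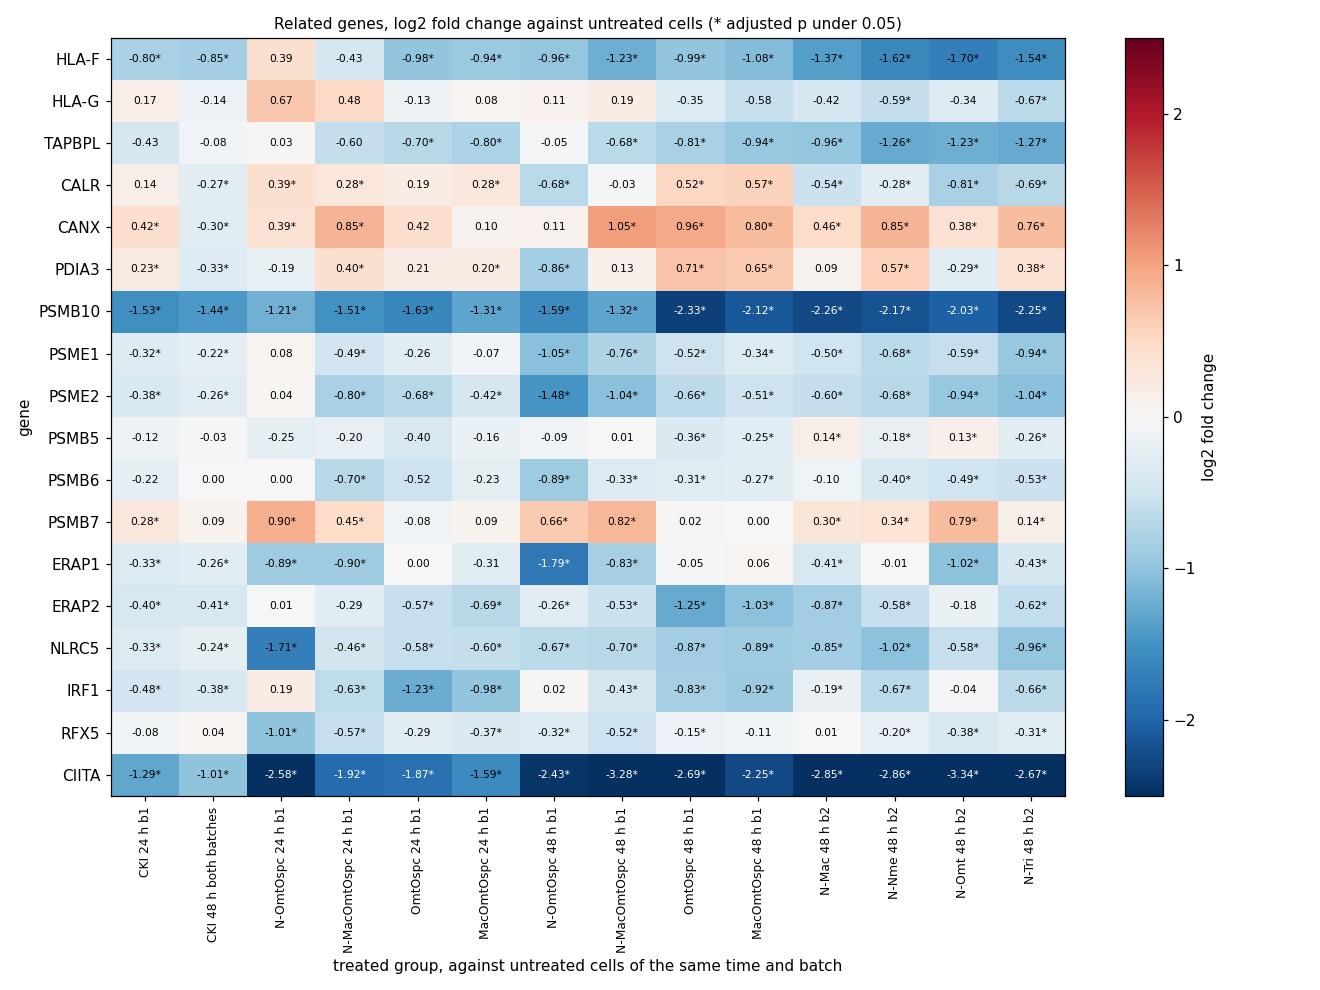
Log2 fold change against matched untreated cells (printed values and colour scale, red higher and blue lower) for class I heavy chains, loading, proteasome and regulator genes (rows) in 14 comparisons (columns), with a star where the gene was DE. The rows of PSMB10, NLRC5 and CIITA are negative and DE throughout.

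Over all 54 libraries, with the mean of each time and batch set removed, the members did not move as 1 block. As a description, HLA-B and HLA-C were most alike (Pearson r = 0.956, in libraries that share treatment groups), followed by HLA-E with TAP1 (0.874) and TAP2 with PSMB9 (0.842), while HLA-E and PSMB9 had r = -0.101. TAP1 with its divergent neighbour PSMB9 had r = 0.174, and TAP1 with its transporter partner TAP2 had r = 0.167. Among the 9782 genes that averaged 10 CPM or more, the gene most like each member was ICAM3 for HLA-E (0.941), S100A10 for B2M (0.848), DUSP7 for TAP1 (0.912), IKBKE for TAP2 (0.872), PRKCSH for TAPBP (0.954), S100A2 for PSMB8 (0.906) and TP53I3 for PSMB9 (0.912). HLA-B and HLA-C were each other's nearest. The genes outside the lists closest to the mean profile of the 9 members were TRIM47 (0.949), IGFBP4 (0.904), BMP4 (0.904), PLOD3 (0.903) and RARRES3 (0.896).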

How the data were processed

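Poly(A) RNA of MDA-MB-231 cells was sequenced as paired 150-base reads in 54 libraries. The authors deposited a table of raw counts per gene (27978 genes), and the submitters' processing notes name hg19, FastQC 0.11.4, Trim Galore 0.3.7, STAR 2.5.3a, Subread 1.5.2 with featureCounts and edgeR 3.22.3. The strand setting and the treatment of reads that match several genes are not given in the sources used here. Groups, times and batches were taken from the labels.

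Counts were filtered with filterByExpr, scaled by the trimmed mean of M-values (TMM) and tested with edgeR 4.0.16 (quasi-likelihood, limma 3.58.1, R 4.3.3), fitting only the groups compared, with a batch term at 48 h for CKI. Benjamini-Hochberg adjustment covered all genes tested, with a threshold of 0.05. SEs are the log2 fold change divided by the square root of F. CPM use TMM-scaled totals. Alternatives were other scalings and filters, DESeq2 1.42.0, all libraries in 1 fit, single batches, a replicate block, a fold threshold and leaving out libraries. Depth was 17673537 to 26138924 counts per library. Simulated data had the same spread for every gene and 200 genes with 2-fold changes, up and down in equal number. Of these, 87% were recovered in the design of CKI at 24 h (10 false calls among 14212 genes) and 97% at 48 h (9 among 14408). In the real data spread differs by gene and 38.7% and 71.5% of genes were called, so these figures do not give the recovery of the real fits.

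Replicate numbers were not used to pair samples in the main fits, and the P-values measure the spread between these cultures. The named genes are the 9 members in every comparison, all of the heavy chain, loading, immunoproteasome and counterpart lists, ERAP1, ERAP2, NLRC5, IRF1 and RFX5, and per other list the 2 called genes with the largest change at 48 h under CKI. MARCH9 and IRGQ and the genes most like the members follow the same written rule. Some genes that the rule names are not reported here. The members and lists were chosen with earlier results of these data known.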

Additional observations from a re-analysis of the deposited data

How the results depend on the processing

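Of 5515 values of members and related genes recomputed under the alternatives, 5232 kept their side of the threshold, among them 166 that were not called and changed sign, 181 lost a call, 101 gained one and 1 reversed, PSMB6 under CKI at 48 h, which was 0.10 in batch 2 alone. Counts of called members are given below. With a size of 1 or more on the log2 scale also required, the counts were 1 under CKI at 24 h, 0 under CKI at 48 h, 5 under the mixtures at 24 h, 5 at 48 h in batch 1, 8 under the single removals, 1 against CKI at 24 h, 1 at 48 h in batch 1 and 3 in batch 2, 0 for Mac, 0 and 0 between untreated sets, and 12 of the other pathway genes at each time. For CKI at 48 h the count of 5 was 3 in batch 1 alone, 6 in batch 2 alone and 3 with all 54 libraries in 1 fit. For mixtures against CKI at 24 h the count of 10 was 3 with the replicate block and 18 with all libraries in 1 fit. For Mac the count of 9 was 5 with library sizes alone. For the interaction with batch the count of 0 was 1 without a filter, and for that with time it was 2 with DESeq2 and 2 without the libraries that stand apart. Between untreated batches the count of 4 was 2 with all libraries in 1 fit.

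Leaving out 1 library gave 3 to 4 calls under CKI at 24 h and 5 to 6 at 48 h, 14 to 21 under the mixtures at 24 h, 27 to 31 at 48 h in batch 1 and 35 to 36 under the single removals. Against CKI it gave 4 to 11 at 24 h, 21 to 24 at 48 h in batch 1 and 34 to 35 in batch 2, and for Mac 7 to 11. It gave 0 to 1 and 0 to 2 for the interactions with batch and time, 3 to 4 and 2 to 4 between untreated batches and times, and 30 to 69 and 74 to 76 of the other pathway genes at 24 h and 48 h. Every same-numbered pair of libraries deviated together in 0 of 33 comparisons, with r of single pairs from -0.563 to 0.335. Samples were therefore not paired in the main fits, although this does not exclude a pairing in part of the series. With the replicate block the counts were 3 and 5 under CKI at 24 h and 48 h, 19, 27 and 36 under the mixtures, 23 and 34 against CKI at 48 h, 9 for Mac, and 36 and 73 of the other pathway genes, and the call of TAP1 under CKI at 24 h was lost. The causes of these changes were not tested. PSMB9 and PSMB8 rest on the fewest reads, and the read sharing of HLA-B and HLA-C is a limit that depth does not remove.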
